A study of Homo sapiens with 6 samples.

Results

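Laminins are the large cross-shaped glycoproteins that epithelial cells lay down in their basement membranes, and each is a heterotrimer of 1 alpha, 1 beta and 1 gamma chain. The 9 genes described here encode such chains: LAMA1, LAMA3, LAMA4 and LAMA5 (alpha), LAMB1, LAMB2 and LAMB3 (beta), and LAMC1 and LAMC3 (gamma). They were selected by gene symbol from the 26364 genes of the deposited table, with their response in these libraries already known. Their differences between groups are therefore given as a description, with no test. Other laminin chain genes were not analysed here.

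The libraries came from T47D, an established human breast cancer line of luminal A type, 48 h after transfection with 1 of a pair of siRNAs. One group of 3 libraries received siNC, a control siRNA, and the other group of 3 received siELF5, which targets the ETS-family transcription factor ELF5. The siRNAs are different catalogue products, and each group rests on 1 siRNA in 1 line. What differs by siRNA product and what differs by target cannot be told apart.

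The alpha chain carries the sites that cell surface receptors bind, and the beta and gamma chains join it in a coiled coil before the trimer leaves the cell. A trimer is named by its chain numbers, so laminin-511 holds the alpha 5, beta 1 and gamma 1 chains. In the breast, laminins lie in the basement membrane around the ducts and acini, where luminal and myoepithelial cells attach to it. ELF5 is known as a regulator of the secretory luminal lineage. The series title asks whether ELF5 acts on epithelial integrity apart from its relative EHF, and the laminin chains are among the molecules that anchor an epithelium.

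Read totals recovered from the table ran from 66.8 M to 83.7 M per library. ELF5 itself had 13094 ± 164 normalised reads in siNC against 3680 ± 43.7 in siELF5 (SD, n = 3 each), and every siELF5 library held 27.8 to 28.4% of the siNC mean. A GC score, the median shift of the most GC-rich genes relative to genes of middle GC content, lay at -0.394, -0.219 and -0.0703 in siNC and between 0.221 and 0.275 in siELF5 (log2 scale). The groups did not overlap in this score, so effects of the siRNA and of GC content cannot be told apart, and member values are given with and without a correction for it. All 8 luminal epithelial markers had a mean of at least 10, with summed levels of 648075 to 696452 normalised reads in siNC and 580713 to 607403 in siELF5. Of 7 myoepithelial or basal markers, 4 had a mean of at least 10, and their sums overlapped between groups at 547 to 604 and 541 to 632. Of 6 fibroblast markers, 2 reached that mean, at sums of 4227 to 5409 in siNC and 3378 to 3888 in siELF5, with COL1A1 the most abundant at 4061. Of 5 endothelial markers, 1 reached it, at sums of 30.4 to 41.5 and 13.7 to 14.5. No marker was at 0 in all libraries, and the part of these markers in the laminin values was not tested. In such bulk RNA, fewer cells of a kind and less RNA per cell cannot be told apart.

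The stretch just upstream of the start site is shown for LAMC1 and LAMA5, the chains with the 2 largest differences before GC adjustment. It is also shown for a beta and an alpha chain that differed little, LAMB1 and LAMA3. All are 250 bases from RefSeq on GRCh38.p14, written 5′ to 3′ along the gene's own strand. Capitals mark AGGAAG or its reverse complement CTTCCT, the core recognised by ETS factors with its flanks. LAMC1 lies at chr1:183023170-183023419 on the plus strand, LAMA5 at chr20:62367313-62367562 on the minus strand, LAMB1 at chr7:108003162-108003411 on the minus strand and LAMA3 at chr18:23872770-23873019 on the plus strand.
LAMC1: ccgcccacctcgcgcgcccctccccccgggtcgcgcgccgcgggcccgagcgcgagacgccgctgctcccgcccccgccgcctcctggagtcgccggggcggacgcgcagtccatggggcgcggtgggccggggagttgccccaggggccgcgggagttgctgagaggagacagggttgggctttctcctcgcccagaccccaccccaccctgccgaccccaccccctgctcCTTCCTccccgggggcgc
LAMA5: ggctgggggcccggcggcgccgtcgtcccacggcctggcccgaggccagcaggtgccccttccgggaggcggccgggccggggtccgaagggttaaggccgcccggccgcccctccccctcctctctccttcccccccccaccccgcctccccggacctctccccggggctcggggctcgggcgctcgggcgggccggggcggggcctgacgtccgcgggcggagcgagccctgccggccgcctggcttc
LAMB1: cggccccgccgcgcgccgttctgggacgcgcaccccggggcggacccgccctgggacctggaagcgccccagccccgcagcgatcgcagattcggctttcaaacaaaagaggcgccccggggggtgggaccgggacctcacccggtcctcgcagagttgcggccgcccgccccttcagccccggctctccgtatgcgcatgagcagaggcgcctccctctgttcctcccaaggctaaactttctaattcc
LAMA3: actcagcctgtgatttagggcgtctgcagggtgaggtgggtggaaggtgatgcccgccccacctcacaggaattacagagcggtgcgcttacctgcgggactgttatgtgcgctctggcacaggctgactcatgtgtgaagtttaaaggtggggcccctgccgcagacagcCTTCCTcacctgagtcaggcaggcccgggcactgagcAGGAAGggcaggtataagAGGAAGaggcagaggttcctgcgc

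LAMC1 held 1 match, which begins 18 bases before its start site, and LAMA3 held 3. LAMA5 and LAMB1 held none, which says only that these letters are not in the window. Over the 300 bases from 250 before the start to 50 after it, 7 of the 9 chains had 9 windows in the table, and 4 windows held the motif, those of LAMC1, LAMB2, LAMA4 and LAMA3. The motif was in 33.6% of all 35116 such windows and in 28.7% of the 250-base upstream stretches. The stretches also differed in base composition. The LAMA5 window was 82.7% G or C and the LAMC1 window 79%, against a median of 58.7% over all windows. The LAMA4 window had the lowest share of G or C of the member windows, at 51.3%. A match is a description of sequence and not a bound site.

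All 7 chains with enough reads to test had higher values in each siELF5 library than in any siNC library, and the ratio of group means ran from 1.07 to 2.33. LAMA5 and LAMC1 had the largest, at 2.33 and 2.06 times the siNC mean, followed by LAMB3 at 1.91 and LAMA4, at very low counts, at 1.66 times. This order is for values without GC adjustment. By log2 fold change LAMB3 lay above LAMA5 after the GC correction, at 0.79 against 0.57, and with the GC score as a covariate, at 1.23 against 0.37. LAMA3, LAMB1 and LAMB2 differed by 1.07 to 1.18 times. LAMA1 and LAMC3 were near the limit of detection in both groups. Over all 16032 genes tested (mean of at least 10 normalised reads), 27.9% had all 3 siELF5 values above all 3 siNC values, a share read here only as background because the chains were chosen from this contrast. By limma at an adjusted p threshold of 0.05, 6 of the 7 were past the threshold with higher values and 0 with lower. The background was 23.8% of genes called higher, and nothing is read from the comparison. LAMA5, LAMB3 and LAMC1 were past the threshold in every alternative run. LAMA3 was not without siNC replicate 3 or siELF5 replicate 3, and LAMB1 was not without siNC replicate 2 or 3 or siELF5 replicate 1 or 2. LAMB1 was also not past it with the replicate number in the model. After the GC correction LAMB2 was not, with or without the replicate number in the model. With the GC score as a covariate LAMA3, LAMB1 and LAMB2 were not. In a fit without the intensity trend LAMA3, LAMB1 and LAMB2 did not pass, and LAMA4 did.

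**Figure D1:**
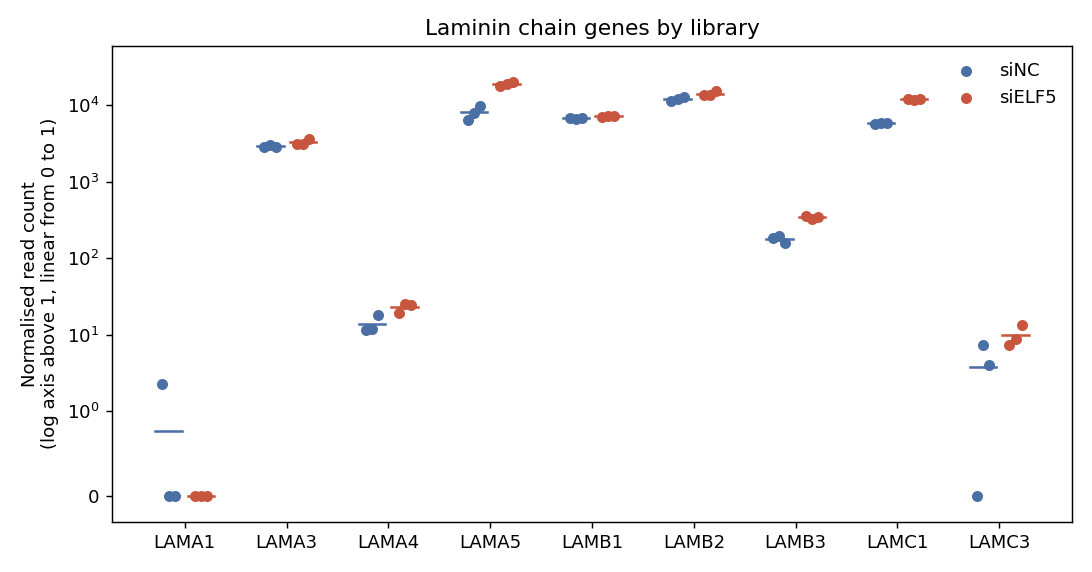
Normalised read counts of the 9 laminin chain genes in each library, on an axis that is linear near 0 and logarithmic above. Dots are libraries (3 siNC, 3 siELF5) and short lines are group means, and siELF5 dots lie above siNC dots for every chain but LAMA1 and LAMC3.

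Among the alpha chains, LAMA5 encodes alpha 5, the chain of laminin-511 and laminin-521 and the most widespread alpha chain of adult epithelia. Its normalised read count was 6465, 7992 and 9975 in siNC replicates 1, 2 and 3, and 17887, 18894 and 20046 in siELF5 replicates 1, 2 and 3. The lowest siELF5 library was thus well above the highest siNC library, but the siNC libraries themselves differed more than those of any other abundant chain. The means were 8144 ± 1760 and 18942 ± 1081 (SD, n = 3 each), and the log2 fold change was 1.24 (SE 0.11). Only 1.98% of tested genes had a larger increase.

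Among the chains past the threshold, the LAMA5 fold change was also the one most moved by both GC treatments. Its longest transcript is 66.4% G or C, and only 2.08% of tested genes had more. The siNC library with the lowest GC score had the lowest LAMA5 count and the one with the highest score the highest count. After a per-library correction for GC content, the values were 9434, 10001 and 10966 in siNC and 14276, 14385 and 16434 in siELF5. The groups still did not overlap, and the log2 fold change was 0.57 (SE 0.053). With the GC score as a covariate in the model it was 0.37 (SE 0.11). The size of the LAMA5 difference was therefore between 0.37 and 1.24 on the log2 scale, according to how base composition was treated. LAMA5 exons overlap those of ADRM1 over 1.71% of their length and those of LAMA5-AS1 over 0.826%, both on the opposite strand, and reads from them cannot be told apart with a kit that does not mark strand.

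LAMA3 encodes alpha 3, the chain of laminin-332 that binds the integrins of hemidesmosomes. It had 2901, 3013 and 2863 normalised reads in siNC and 3171, 3094 and 3679 in siELF5. Replicate 3 of siELF5 stood above the rest, and the other siELF5 libraries were only slightly above the highest siNC library. The means were 2926 ± 77.9 and 3314 ± 318 (SD, n = 3 each), and the log2 fold change was 0.18 (SE 0.060). Without siELF5 replicate 3 it was 0.10. The GC correction left it at 0.18, and 29.3% of tested genes had a larger increase.

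LAMA4 encodes alpha 4, a chain best known from vessel walls and other mesenchymal tissue. It was barely measured, at 10, 13 and 18 reads in siNC and 21, 26 and 24 in siELF5, or 13.9 ± 3.75 and 23.1 ± 3.53 normalised reads (SD, n = 3). The groups did not overlap, yet the log2 fold change of 0.71 had an SE of 0.36, and with the GC score as a covariate it was -0.20 (SE 1.01). LAMA1 encodes alpha 1, the chain of laminin-111, which is the main laminin of the early embryo. It had 2 reads in siNC replicate 1 and 0 in each of the other 5 libraries, and no fold was computed.

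Among the beta chains, LAMB2 encodes beta 2, a partner of alpha 5 in laminin-521. Its values were 11317, 12206 and 12715 normalised reads in siNC and 13547, 13666 and 15457 in siELF5. The groups did not overlap as deposited, at means of 12079 ± 707 and 14224 ± 1070 (SD, n = 3 each), and the log2 fold change was 0.23 (SE 0.053). After the GC correction they did overlap, at 12971 to 13032 in siNC and 12718 to 14166 in siELF5. The log2 fold change was then 0.02 (SE 0.037), and it was 0.03 (SE 0.11) with the GC score as a covariate. The transcript is 60.3% G or C.

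LAMB1 encodes beta 1, the partner of alpha 5 in laminin-511. It had 6850, 6702 and 6786 normalised reads in siNC and 7143, 7295 and 7258 in siELF5. This is the smallest difference among the chains measured, 6779 ± 74.2 against 7232 ± 78.9 (SD, n = 3 each), and the log2 fold change was 0.09 (SE 0.033). It was 0.10 after the GC correction, and 37.7% of tested genes had a larger increase. Part of LAMB1 overlaps DLD on the opposite strand, over 0.86% of its exons.

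LAMB3 encodes beta 3, which occurs with alpha 3 in laminin-332. Its values were low but well separated, at 183, 194 and 160 normalised reads in siNC and 356, 324 and 347 in siELF5. The means were 179 ± 17.2 and 342 ± 16.6 (SD, n = 3), resting on 527 reads in all siNC libraries together and 1061 in all siELF5 libraries. The log2 fold change was 0.94 (SE 0.12), 0.79 (SE 0.12) after the GC correction and 1.23 (SE 0.31) with the GC score as a covariate. LAMB3 was thus close to LAMC1 in fold, but its partner in laminin-332, LAMA3, was not.

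Among the gamma chains, LAMC1 encodes gamma 1, which is part of most laminins. It had 5753, 5830 and 5898 normalised reads in siNC and 12116, 11914 and 12066 in siELF5. The libraries of a group were close to each other, and the gap between the groups was many times their spread. The means were 5827 ± 72.8 and 12032 ± 106 (SD, n = 3 each), and the log2 fold change was 1.05 (SE 0.031). Of the 3 chains with the largest differences on well-measured counts, LAMC1 was the least moved by the GC treatments, at 1.06 (SE 0.029) after the GC correction and 1.00 (SE 0.084) with the GC score as a covariate. Its transcript is 48.65% G or C, close to the median of the genes tested, since 49.8% of them had more. LAMC3 encodes gamma 3, a chain known from nerve, retina and reproductive tract. It had 0, 8 and 4 reads in siNC and 8, 9 and 13 in siELF5, so the groups met at 8 reads and no fold was computed.

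**Figure D2:**
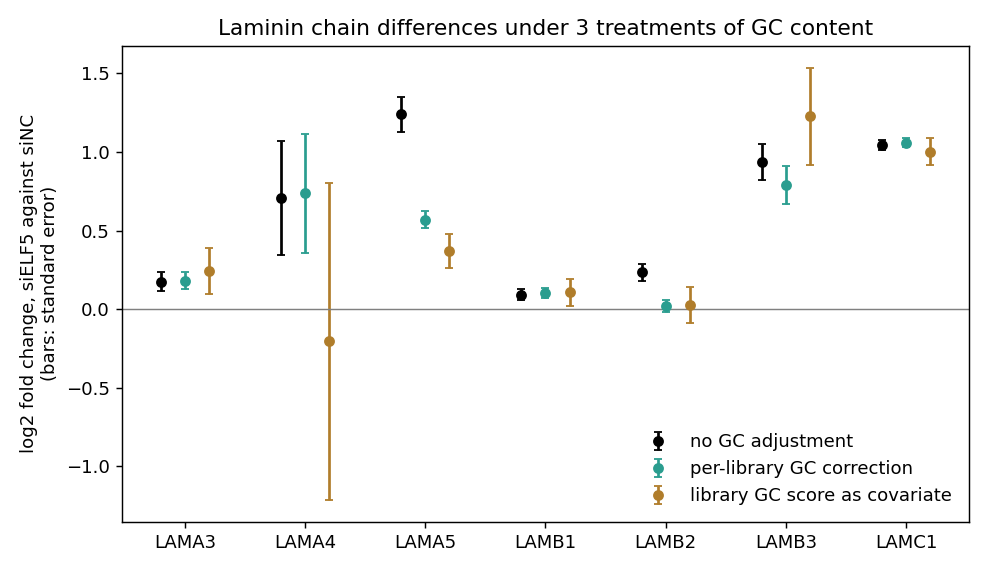
Log2 fold change of siELF5 over siNC (y axis) with its standard error for the 7 laminin chains tested (x axis). The folds are from limma without GC adjustment, after a per-library GC correction, and with the GC score of each library in the model. LAMC1 stays near 1 under each treatment, LAMA5 goes from 1.24 to 0.57 and 0.37, and LAMB2 goes from 0.23 to 0.02 and 0.03.

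**Figure D3:**
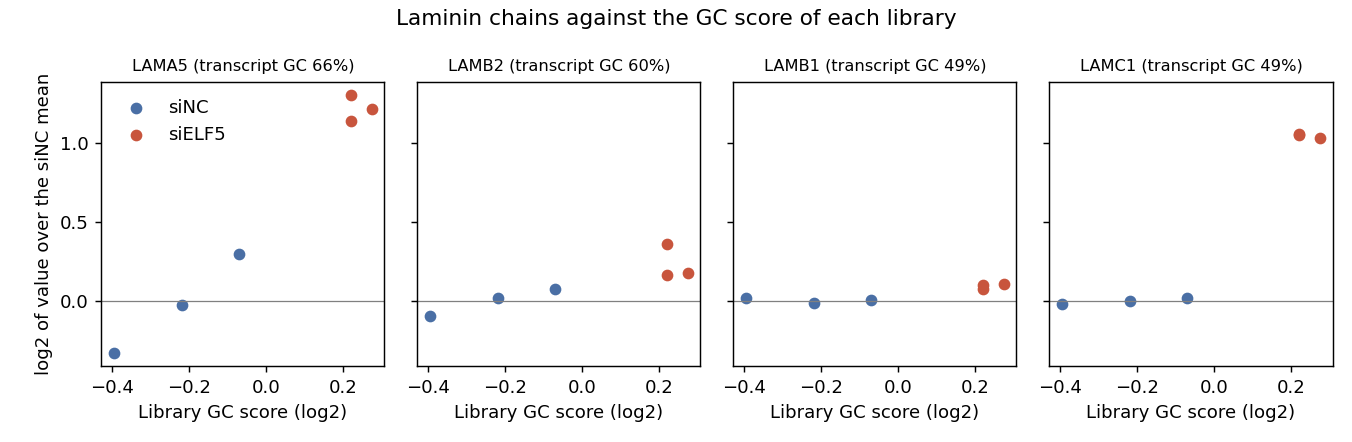
Log2 of each library's normalised read count over the siNC mean (y axis) against the library GC score (x axis, log2 scale) for LAMA5, LAMB2, LAMB1 and LAMC1. LAMA5 differs among the siNC libraries along with the score, and LAMC1 differs between groups but hardly within them.

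Past the threshold with higher values were 5 of the 7 chains after the GC correction, where 20.6% of all genes tested were called higher, and 3 with the GC score as a covariate, where 3.24% were. In the authors' deposited table the log2 fold changes were close to those above, at 1.05 for LAMC1, 1.2 for LAMA5, 0.94 for LAMB3 and 0.73 for LAMA4.

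Levels of different chains can be set side by side only per length, so normalised reads were divided by the kilobases of each gene's merged exons. On this scale LAMB2 was the most abundant chain in both groups, at 1760 ± 103 reads per kilobase in siNC and 2072 ± 156 in siELF5 (SD, n = 3). In siNC it was followed by LAMB1 at 833 ± 9.12, LAMC1 at 693 ± 8.66 and LAMA5 at 570 ± 123. LAMC1 and LAMA5 could not be ranked there, since LAMA5 ran from 452 to 698 and LAMC1 from 684 to 702. LAMA3 came next at 199 ± 5.31, and LAMB3 at 38.1 ± 3.68. LAMA4, LAMC3 and LAMA1 were at 1.20, 0.502 and 0.048, and the last pair overlapped.

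In siELF5 the order differed in its middle ranks. LAMC1 at 1431 ± 12.6 and LAMA5 at 1326 ± 75.6 reads per kilobase (SD, n = 3) now both lay above LAMB1 at 888 ± 9.69. LAMC1 and LAMA5 did not overlap on this scale, but with the longest transcript as the length their order was turned, at 1525 and 1658. LAMA3 had 226 ± 21.7 and LAMB3 73.0 ± 3.54. LAMA4 at 1.99 and LAMC3 at 1.29 overlapped, and LAMA1 was at 0. The 4 most abundant chains in both groups were thus those that make up laminin-511 and laminin-521.

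**Figure D4:**
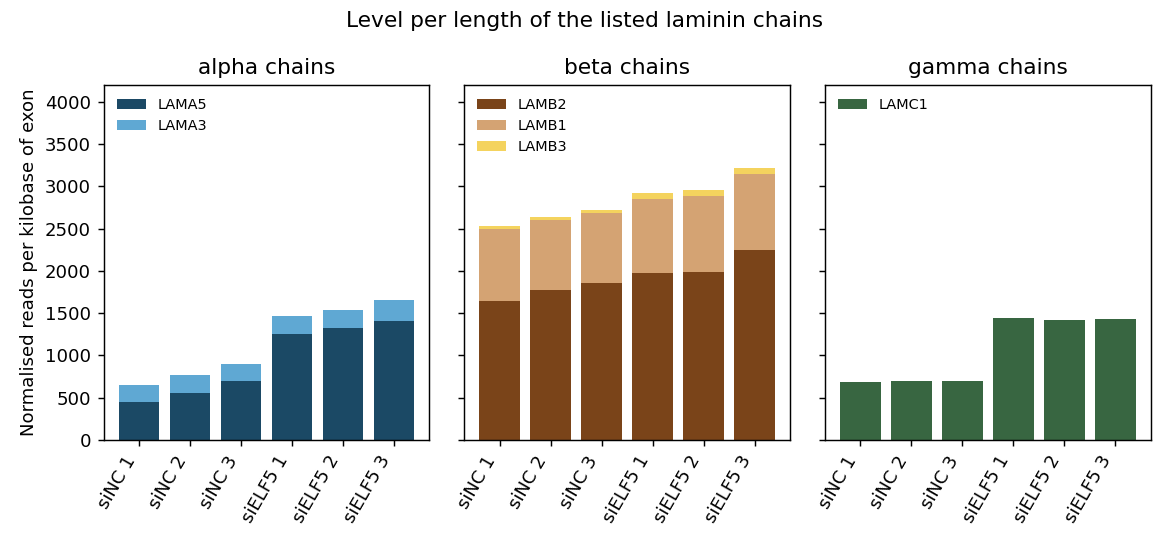
Normalised reads per kilobase of merged exons in each library, stacked by alpha, beta and gamma class. LAMA1, LAMA4 and LAMC3 are too low to draw, and the gamma bar, which is nearly all LAMC1, is about as tall as the alpha bar in each group while the beta bar is the tallest.

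Within the alpha class LAMA5 made up 73.5% ± 4.29 of the reads per kilobase in siNC and 85.3% ± 0.71 in siELF5 (SD, n = 3). LAMA3 made up 26.3% and 14.5%. After the GC correction, which acts between libraries and not between chains, the LAMA5 share was 77.9% and 82.2%. If all LAMA3 reads came from its shorter transcript LAMA3-201, an alternative added after seeing the data, the share was 57.5% and 73.8%. LAMA5 was the larger part of the alpha class in each of these settings.

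The beta class kept its make-up more closely. LAMB2 held 66.9% in siNC and 68.3% in siELF5, LAMB1 31.7% and 29.3%, and LAMB3 1.45% and 2.41%. LAMC1 was 99.9% of the gamma reads of the members in both groups. The balance between classes differed most for beta against gamma, with 3.79 ± 0.090 beta reads per kilobase for each gamma read in siNC and 2.12 ± 0.11 in siELF5 (SD, n = 3). This ratio was 4.0 and 2.0 after the GC correction. Alpha against gamma was 1.11 ± 0.16 and 1.08 ± 0.067 as deposited, with overlapping groups, and 1.32 and 0.89 after the GC correction, so whether it differed rested on how base composition was treated.

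A trimer cannot form in larger number than its scarcest chain allows, so for each known trimer the chain with the lowest level per kilobase was taken. This compares RNA levels only, and protein, assembly and secretion were not measured. Each trimer was taken alone, although LAMC1 and LAMA5 are both shared by laminin-511 and laminin-521. The lowest levels of different trimers are therefore not amounts that could be reached together. Of 14 trimers considered, 10 have all their chains among these genes, and 4, laminin-332 among them, were not analysed here. Laminin-521 and laminin-511 had the highest lowest chain. For laminin-521 that chain was LAMA5 in both groups, at 452, 559 and 698 reads per kilobase in siNC and 1252, 1322 and 1403 in siELF5. For laminin-511 it was LAMA5 in siNC and LAMB1 in siELF5, where LAMB1 lay at 878, 896 and 892. Taken alone, laminin-511 thus had a different lowest chain in each group on this length. Which chain was lowest depended on the length used. With the longest transcript, the lowest chain of laminin-521 in siELF5 was LAMC1 in all 3 libraries, at 1525 reads per kilobase. With the median transcript length, LAMC1 was the lowest chain of laminin-521 in both groups and of laminin-511 in siNC. The median annotated transcript is far shorter than the longest for these chains. LAMA5 in siNC came to 11976 reads per kilobase on it, against 713 on the longest, so this length is a weak basis for a ranking.

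After the GC correction the lowest chain of laminin-521 was at 684 ± 22.0 reads per kilobase in siNC and 1052 ± 85.0 in siELF5, and that of laminin-511 at 684 ± 22.0 and 892 ± 13.7 (SD, n = 3). LAMC1 was then the lowest chain in 2 of the 3 siNC libraries for both. The correction acts between libraries and does not adjust the level of 1 chain against another for their GC content. Laminin-311 and laminin-321 were limited by LAMA3 in all 6 libraries, at 199 and 226. With LAMA3-201 as the LAMA3 length and the longest transcript for the other chains, LAMA3 was still their lowest chain, at 516 in siNC and 584 in siELF5. On those lengths the lowest chain of laminin-511 and of laminin-521 was at 671 in siNC, and at 1254 and 1525 in siELF5. On merged exons without GC correction, laminin-411 and laminin-421 were limited by LAMA4, at 1.20 and 1.99, and laminin-423 and laminin-523 by LAMC3, at 0.502 and 1.29. Laminin-111 and laminin-121 would need LAMA1, of which only 2 reads were seen.

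**Figure D5:**
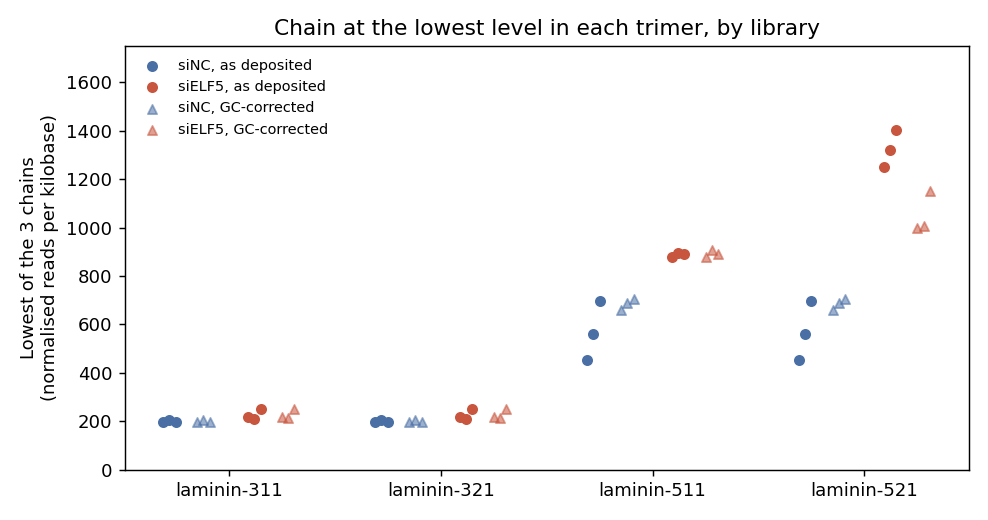
Level of the scarcest chain, in normalised reads per kilobase, of 4 laminin trimers in each library, as deposited (circles) and after GC correction (triangles). For laminin-511 and laminin-521 every siELF5 point lies above every siNC point under both treatments, and laminin-311 and laminin-321 share LAMA3 as the scarcest chain.

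The genes whose profile over the 6 libraries was nearest to that of a chain were found among 13806 genes with a mean of at least 50, by Euclidean distance between centred log2 values. For LAMC1 these were ACOX2, a peroxisomal oxidase of bile acid synthesis, at a distance of 0.081, ADORA1, an adenosine receptor, at 0.090, and SERPINA6, the corticosteroid-binding globulin, at 0.094. For LAMA5 they were GPR27, an orphan receptor, at 0.116, C19orf26 at 0.156 and LOC90246 at 0.195. For LAMB3 they were SHC2, a signalling adaptor, at 0.146, GALNT12, which starts O-glycans, at 0.172, and CNTN5, a neuronal adhesion molecule, at 0.174. Their log2 fold changes were 0.90, 0.95 and 0.89, against 0.94 for LAMB3. SHC2 reached the mean of 50 only through its siELF5 values, with means of 35.1 in siNC and 65.9 in siELF5, so its place is not read as a result. No other laminin chain was among them, and the distances rest on 6 libraries.

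Around the chains, 71 genes for laminin receptors, other basement membrane components and their partners were listed, of which 64 were tested. The lists were chosen with earlier results of these data known. Their counts are therefore a description, and nothing is read from their difference from all genes. By limma, 44 of the 64 were past the adjusted p threshold, 31 higher and 13 lower in siELF5. The median log2 fold change was 0.15, against 0.0015 over all genes tested. Of all genes tested, 47.1% were called in either direction, 23.8% higher and 23.3% lower. After the GC correction 29 of the partner genes were higher and 20 lower, with a median of 0.10. Over all genes tested, 20.6% were then higher and 28.5% lower, with a median of -0.03. In the model with the GC score 3 partner genes were higher and 11 lower, against 3.24% and 4.02% of all genes.

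The laminin-binding integrins are alpha-beta pairs, and 3 of 5 genes rose while 0 fell (all genes tested: 23.8% and 23.3%). ITGA3, the alpha 3 subunit that binds laminin-332 and laminin-511, had 2392 ± 201 normalised reads in siNC and 3500 ± 32.2 in siELF5 (SD, n = 3; log2 fold change 0.55, limma adjusted p = 6.32e-06). ITGA6, the alpha 6 subunit, rose by 0.30 on the log2 scale (limma adjusted p = 9.35e-05), and ITGB1, the beta 1 subunit that pairs with both, rose by 0.22 (limma adjusted p = 6.67e-05). ITGB4, the beta 4 subunit of hemidesmosomes, had a log2 fold change of 0.13 (limma adjusted p = 0.164). It was called lower after the GC correction, at -0.31 (limma adjusted p = 3.76e-06), and with the GC score, at -0.40 (limma adjusted p = 0.0205). ITGA7, the alpha 7 subunit of muscle, was at 0.50 (limma adjusted p = 0.0828). Without siNC replicate 3, ITGB4 and ITGA7 passed the threshold as higher, at 0.22 and 0.77. The integrin counts were 3 higher and 1 lower after the GC correction, with ITGA3 at 0.28, and 1 higher and 1 lower with the GC score. In the latter model ITGB1 kept its call, while ITGA3 at 0.21 and ITGA6 at 0.28 did not (limma adjusted p = 0.28 and 0.152).

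Of 9 other laminin receptors and ligands, 4 rose and 4 fell (all genes tested: 23.8% and 23.3%). DAG1, the dystroglycan precursor whose sugar chains bind the laminin alpha chain, went from 29175 ± 667 to 20694 ± 501 normalised reads (SD, n = 3 each), and the log2 fold change was -0.50 (limma adjusted p = 8.4e-08). The syndecans SDC2 and SDC4, heparan sulphate proteoglycans of the cell surface, fell by 0.87 and 0.36 on the log2 scale (limma adjusted p = 2.29e-09 and 1.87e-06). RPSA, named the laminin receptor and also a ribosomal protein, fell by 0.44 (limma adjusted p = 9.07e-08), but its many processed copies make its count uncertain. These 4 were the genes of the list with the smallest adjusted p, and all of them fell. BCAM, named after its values were seen because it is the Lutheran receptor of the laminin alpha 5 chain, went the other way. It had 6329 ± 972 normalised reads in siNC against 9681 ± 483 in siELF5 (SD, n = 3 each; log2 fold change 0.62, limma adjusted p = 6.11e-05), and the GC correction left 0.15. With the GC score BCAM was at -0.03 (limma adjusted p = 0.886). SDC1, another syndecan of the list and also named after its values were seen, rose by 0.30 (limma adjusted p = 0.000144). It was at 0.10 after the GC correction and at 0.06 with the GC score (limma adjusted p = 0.802). With the GC score the list had 0 genes higher and 4 lower, and after the GC correction 4 higher and 5 lower.

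Of 15 other basement membrane genes tested, 9 rose and 0 fell (all genes tested: 23.8% and 23.3%). The list was chosen with earlier results known, so nothing is read from this difference. AGRN, the laminin-binding proteoglycan agrin, had 13832 ± 3074 normalised reads in siNC and 27922 ± 1736 in siELF5 (SD, n = 3; log2 fold change 1.04, limma adjusted p = 1.25e-05). COL18A1, the source of endostatin, rose by 0.98 (limma adjusted p = 1.17e-06), TINAGL1, a matricellular protein, by 0.89 (limma adjusted p = 2.5e-06) and COL4A6, a collagen IV chain, by 0.63 (limma adjusted p = 4.96e-07). The GC correction took AGRN to 0.27 and COL18A1 to 0.25, and left TINAGL1 at 0.71 and COL4A6 at 0.59. It gave 9 higher and 1 lower, the latter being COL7A1 at -0.55 (limma adjusted p = 0.00365), a collagen of anchoring fibrils named after its values were seen. With the GC score 1 of the 15 was higher, COL4A6 at 0.66 (limma adjusted p = 0.00202), and 0 were lower. COL4A1, COL4A2, NID1 and SPARC, named after their values were seen, had means under 10 and were not tested. NID1 encodes nidogen 1, which links laminin gamma 1 to collagen IV, and it had 0 reads in 5 of 6 libraries.

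Of the hemidesmosome linkers, DST, which ties keratin filaments to the integrin, fell by 0.56 (limma adjusted p = 6.81e-07). PLEC, the plectin gene, was at 0.27 (limma adjusted p = 0.0377), and was called lower after the GC correction, at -0.45 (limma adjusted p = 8.37e-09), and with the GC score, at -0.53 (limma adjusted p = 0.000325). PLEC also lost its higher call with DESeq2, in the fit without the intensity trend, and without any 1 of 5 libraries, siNC replicates 1 and 2 and each siELF5 replicate, and it was 0.12 without siNC replicate 1. COL17A1 had a mean under 10. Of 7 laminin-cleaving proteases tested, 3 rose and 0 fell (all genes tested: 23.8% and 23.3%). HPN, the membrane serine protease hepsin, had 491 ± 34.4 normalised reads in siNC and 1229 ± 75.2 in siELF5 (SD, n = 3; log2 fold change 1.32, limma adjusted p = 5.75e-08). FURIN, a proprotein convertase, rose by 0.45 (limma adjusted p = 9.27e-05), and BMP1, which trims laminin chains, by 0.35 (limma adjusted p = 0.00235). After the GC correction these were 0.88, 0.16 and 0.09, and BMP1 was no longer past the threshold. With the GC score only HPN among the proteases was higher, at 1.05 (limma adjusted p = 0.00166).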

How the data were processed

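RNA of T47D cells was sequenced in 6 libraries, and the sample titles gave each library's group and replicate number. Per the labels' protocols, library preparation used Illumina's TruSeq RNA kit v2, which does not mark strand. Per the submitters' processing notes, the build was hg19 and the tools included STAR 2.6, Subread, featureCounts 1.6.3 and DESeq2 1.22.1. The sources used here do not give how they were set, strand included. The deposited per-library values are a signal, gene counts divided by a size factor, called normalised reads here. The deposited log2 fold change with its standard error, the deposited test score and the deposited p-value are the authors' own results and entered no test. All values (100%, tolerance 1e-06) were whole multiples of the column's smallest value, so whole reads were recovered.

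Of 26364 genes, 21390 had a read and 16032 with a mean of at least 10 were tested with limma 3.58.1 in R 4.3.3. The test was two-sided with an intensity trend on log2(value + 1), which understates the change of low genes, with Benjamini-Hochberg adjustment and a threshold of 0.05. Called genes numbered 7559. On the recovered reads edgeR 4.0.16 called 7578 and DESeq2 1.42.0 called 7292. The fit was tested on simulated data. Nothing in the labels says that replicates were separate cultures. The p-values then measure only how much these libraries differ, which may be technical. Among the chains, counting error is largest for LAMA1, LAMA4 and LAMC3. It also bears on LAMB3, which had 159, 210 and 158 reads in siNC, and is small for the others.

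Transcript GC content came from the longest GENCODE 29 transcript, found for 15458 tested genes (96.4%). For the GC correction, a loess fit (span 0.3) of gene deviations against GC content was removed from each library. Deviations are from each gene's own mean over the libraries, so genes of different GC content are not adjusted against each other. A library's GC score is how far its 10% most GC-rich genes deviate, by the median, from a class of middle GC. Since the score separates the groups, using it in the model also removes some of their difference. The counts are on hg19 while the reference is on GRCh38, and it served for names, lengths, overlaps and sequence.

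The members and the partner lists were chosen with earlier results of these data known. Named genes were the 9 chains, ELF5, from each of 7 partner lists up to 4 called genes, those of smallest adjusted p, plus every laminin-binding integrin, and the 3 nearest profiles of each chain with a mean of at least 50 and a log2 fold change of at least 0.5. Alternatives were other pseudocounts, filters, scalings, GC treatments, gene lengths, tools, a replicate block and leaving out each library.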

Additional observations from a re-analysis of the deposited data

How the results depend on the processing

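The number of genes called lay between 6167 and 7324 when 1 library was left out, against 7559 with all, and the number of partner genes called between 38 and 44, against 44. With each library's GC score in the model, 1163 genes and 14 partner genes were called. The median standard error was then 0.15 against 0.063, and the score separates the siRNA groups. The other alternatives left both counts within 1.5 times. The share of higher calls among partner genes was moved by the GC treatments, as given beside them. The log2 fold change of ITGA7 was -0.83 with the GC score. That of ITGB4 was -0.31 with the GC correction and -0.40 with the score, and that of PLEC -0.45 and -0.53. No alternative turned the direction of a called chain. LAMA4, not past the threshold, turned to -0.20 with the GC score, and LAMB2 was at 0.02 and 0.03 with the GC treatments. The cause of these changes was not tested beyond those settings.

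Replicate numbers were checked as a pairing. The deviations of same-numbered libraries correlated at 0.0146, -0.0345 and -0.056. With 3 libraries per group this cannot show whether they shared a culture or day, and the labels do not say. With the replicate block, 7174 genes and 43 partner genes were called, and with the replicate block and the GC correction 7712 and 47. ITGB4 and PLEC were at -0.31 and -0.45 in the latter fit.

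Depth limits LAMA1, LAMA4 and LAMC3, which rest on 2 to 71 reads per group where any were seen. The order of chains per kilobase depends on the length assumed. Protein was not measured, and 1 siRNA was used per group in 1 line.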

Other observations

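Dystroglycan binds laminin through a sugar chain, and of 12 genes that build it 4 rose and 5 fell by limma. Of all genes tested, 23.8% were called higher and 23.3% lower. POMT2, which adds the first mannose, fell by 0.36 on the log2 scale (limma adjusted p = 3.88e-05), and POMGNT1, which extends another branch, fell by 0.27 (limma adjusted p = 0.000142). POMGNT2, which extends the laminin-binding branch, rose by 0.35 (limma adjusted p = 0.000265). LARGE2, which builds the laminin-binding repeat, went from 3267 ± 316 to 4745 ± 115 normalised reads (SD, n = 3), a rise of 0.54 (limma adjusted p = 1.24e-05), and was at 0.16 after the GC correction. The members that passed the test thus moved in both directions. Without siNC replicate 3, or without siELF5 replicate 1, 2 of the 12 rose and 5 fell. With the library GC score in the model 0 rose and 1 fell.

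Of 14 linkers between integrins and actin, 7 rose and 3 fell (all genes tested: 23.8% and 23.3%). The counts were 7 and 6 after the GC correction, and 0 and 3 with the GC score. PXN, the scaffold paxillin, fell from 14246 ± 299 to 9291 ± 320.6 normalised reads (SD, n = 3 each), or -0.62 on the log2 scale (limma adjusted p = 3.64e-08). BCAR1, the scaffold p130Cas, rose by 0.83 (limma adjusted p = 3.13e-05) and was at 0.43 after the GC correction. LIMS1 and LIMS2 encode the PINCH adaptors. LIMS1 rose by 0.29 (limma adjusted p = 0.000202), with near-identical copies that make its count uncertain. LIMS2 was low, at 4.60, 3.69 and 4.05 normalised reads in siNC and 19.9, 22.6 and 24.6 in siELF5. It entered the test only through its siELF5 values, so its fold is not read as a result, although it is 1 of the 7 counted above.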
